A study of Homo sapiens with 18 samples.

Results

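The genes of the polypyrimidine tract binding proteins (PTBP1, PTBP2 and PTBP3, formerly ROD1) and of the poly(C) binding proteins PCBP1 and PCBP2 were followed through 2 lists of RNA sites from HEK293T cells, a human embryonic kidney line. Sites were taken by gene symbol. The 5 genes held 66 of the 15024 distinct U-tracts found in either list.

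The study crosslinked RNA to hnRNP C, a nuclear protein that binds runs of uridines, and asked where this binding meets N6-methyladenosine (m6A). Its 18 samples form 9 groups of 2, all of HEK293T cells. PAR-CLIP with an hnRNP C antibody was done in wild-type control cells, in METTL3 knockdown and in METTL14 knockdown cells, METTL3 and METTL14 being the partners of the enzyme that writes m6A. PARCLIP-MeRIP added an enrichment for m6A in wild-type cells, with Input and IP groups, and RNA-seq covered control cells and knockdowns of HNRNPC, METTL3 and METTL14. The values described here are positions only. They carry no value per sample, so read depth behind a site is unknown and no group could be compared with another. An entry pairs a U-tract, a run of at least 5 uridines, with an RRACH motif (R is A or G, H is A, C or U), the consensus around m6A, at a listed distance of at most 50 nt. One list was derived by PARCLIP-MeRIP and is here termed the switch list, because an m6A that opens an RNA structure and frees a U-tract for hnRNP C is termed a switch. The other is the list its submitters name HCS m6A-switches, here termed the HCS list. Its sites are thus named switches too, and for its U-tracts exon or intron is also given. The switch list held 13378 and the HCS list 2748 distinct U-tracts. Positions are hg19, and intervals are exact binomial 95% intervals that cover counting error only and treat sites of a gene as independent.

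PTB proteins bind pyrimidine-rich RNA through RNA recognition motifs and mostly repress the splicing of nearby exons. PTBP1 is made in most tissues, PTBP2 takes over from it in developing neurons, and PTBP1 lowers PTBP2 by causing an exon of its transcript to be skipped. PCBP1 and PCBP2, also called hnRNP E1 and E2, bind C-rich RNA through KH domains, act on the stability and translation of messenger RNA and carry iron to ferritin. PCBP1 is an intronless gene that arose by retrotransposition, while the other 4 genes have introns.

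The listed sites lay mostly in PTBP2 and PCBP2. PTBP2 held 28 switch sites and 9 HCS sites, and PCBP2 held 25 and 6. PTBP1 held 4 switch sites and 0 HCS sites, and PTBP3 held 1 and 0. PCBP1 was in neither list. PTBP2 and PCBP2 together thus held 53 of the 58 switch sites and all 15 HCS sites of the 5 genes. By family, the PTB genes held 33 switch and 9 HCS sites, and the PCBP genes held 25 and 6, so that within each family one paralog carried most sites. These numbers are not adjusted for gene length. The last listed site ended at position 14450 of the transcript in PTBP1, 28425 in PCBP2, 81688 in PTBP3 and 91915 in PTBP2. How abundant each transcript was in these cells was not analysed here. The part of length or abundance in the number of sites was not tested.

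The switch list named 4187 genes, of which 9, PTBP2 included, held at least 28 of them (0.215%), and 14 genes, PCBP2 included, held at least 25 (0.334%). No other gene of the 1816 with an HCS site reached the 9 of PTBP2, and 18 of them held 6 or more, as PCBP2 did. This lead is by U-tracts. The 9 tracts of PTBP2 lay at 8 distinct motifs, and POLA1 held 8 HCS tracts. Genes were not ranked by motif, where the lead may be a tie. Over all genes with at least 1 switch site, 36.6% also had an HCS site, as did 2 of the 4 PTB and PCBP genes listed there. Genes with as few switch sites as PTBP1 and PTBP3 often lacked HCS sites. Of the 318 genes with exactly 4 switch sites, 171 (53.8%) had no HCS site, and of the 1632 genes with 1 switch site 1311 (80.3%) had none. By the numbers of switch, HCS and exonic HCS sites, the gene nearest to PTBP2 was POLA1, the DNA polymerase alpha catalytic subunit, with 28, 8 and 2 against 28, 9 and 2, at a Euclidean distance of 1. SLIT2, a secreted guidance factor with 28, 5 and 0, followed at a distance of 4.47, and NAP1L4, a histone chaperone with 31, 6 and 0, at 4.69. The nearest to PCBP2, which had 25, 6 and 0, was RBM26, an RNA-binding protein with 26, 5 and 0, at a distance of 1.41. The splicing factor LUC7L2, with 23, 6 and 1, and the polyadenylation factor WDR33, with 24, 4 and 0, were each at 2.24. PTBP1 shared its numbers of 4, 0 and 0 with 170 other genes.

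**Figure D1:**
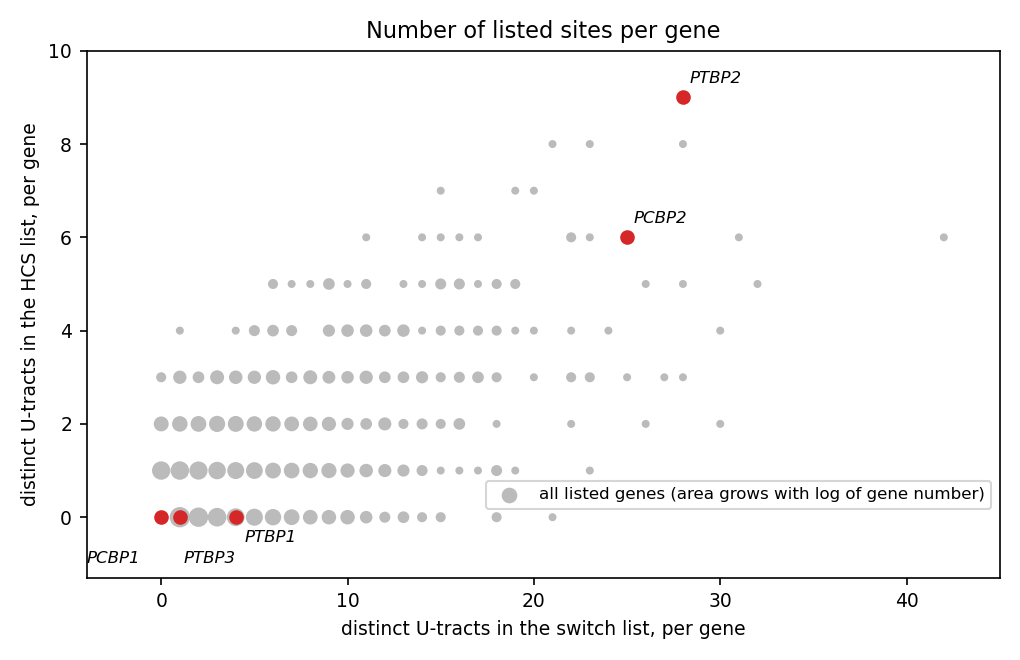
Number of distinct U-tracts per gene in the switch list (x axis) and in the HCS list (y axis); grey circles are all listed genes, larger where more genes share a position, and red points are the 5 genes described. PTBP2 (28 and 9) lies above every other gene on the y axis, PCBP2 (25 and 6) is among the upper right genes, and PTBP1, PTBP3 and PCBP1 lie at 0 HCS sites.

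The largest group of U-tracts around 1 motif in these genes held the exonic HCS sites of PTBP2. A single RRACH motif on chromosome 1, plus strand, at 97279035 to 97279039, was listed with 4 U-tracts downstream of it in the RNA. They had 8, 5, 7 and 10 uridines, at 97279049 to 97279056, 97279058 to 97279062, 97279064 to 97279070 and 97279079 to 97279088. The tracts of 8, 5 and 7 uridines were separated by 1 nt each, and those of 7 and 10 by 8 nt. The tracts hold 30 uridines in a window of 40 nt (75%). All 4 were switch sites, with edge-to-edge gaps to the motif of 9, 18, 24 and 39 nt. The HCS list held the 2 tracts nearest to the motif, both marked exonic, and not the 2 farther ones, for which exon or intron is not given. Only 20 of the 11445 motifs of the switch list (0.175%) had 4 or more U-tracts, and none of the 2676 motifs of the HCS list did. These were also the last listed sites of PTBP2, at positions 91876 to 91915 of its transcript. Positions in the transcript as listed include introns.

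PCBP2 had a similar arrangement on a smaller scale, in an intron. The motif on chromosome 12, plus strand, at 53866728 to 53866732 was listed with U-tracts of 5 and 6 uridines at 53866762 to 53866766 and 53866768 to 53866773, 1 nt apart, with gaps of 29 and 35 nt. Both tracts were in both lists. PCBP2 had 6 motifs with a pair of U-tracts, PTBP2 had 2 motifs with several and PTBP1 had 1 with a pair. Over the 5 genes, 9 of the 47 switch-list motifs (19.1%) were listed with more than 1 U-tract and accounted for 20 of the 58 U-tracts, against 15.3% of all switch-list motifs. HCS tracts occurred at 2 of these 9 motifs, the PTBP2 motif with 4 tracts and the PCBP2 motif just described. The same share over all motifs with several U-tracts was not determined, so whether 2 of 9 is unusual cannot be told.

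**Figure D2:**
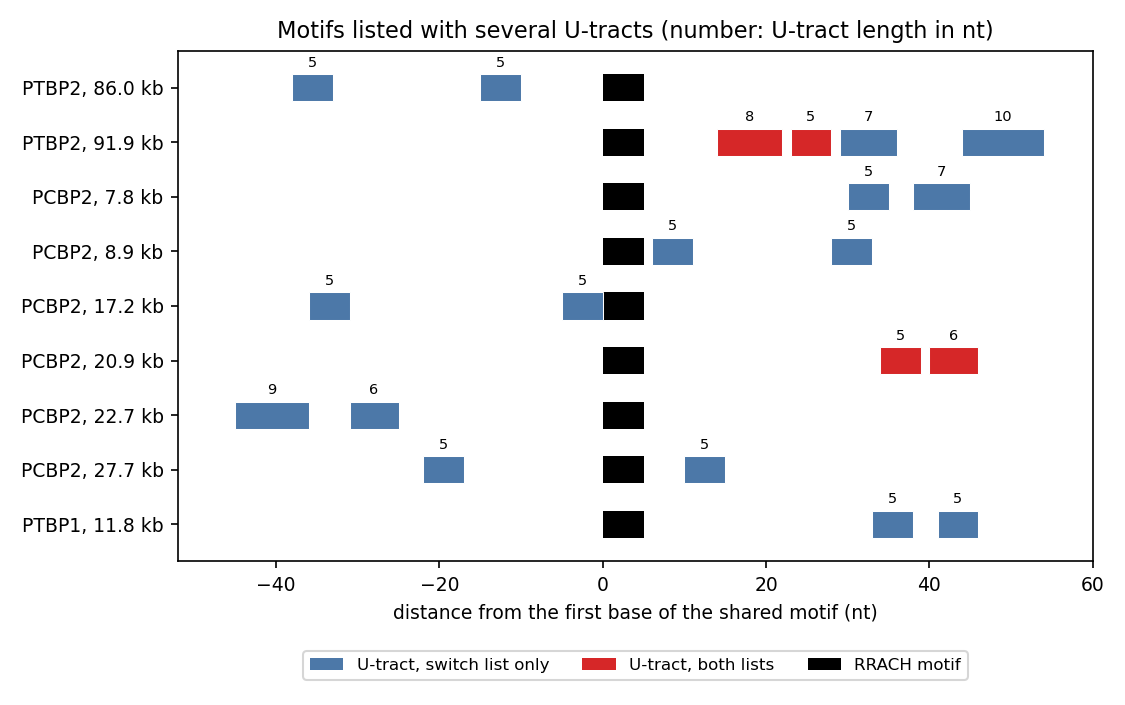
The 9 RRACH motifs (black) of PTBP2, PCBP2 and PTBP1 that were listed with more than 1 U-tract, drawn to scale by distance in nt from the motif's first base along the RNA; blue bars are U-tracts of the switch list only, red bars are in both lists, the number above a bar is its length in nt, and row labels give the position in the transcript. The row with 4 bars is the PTBP2 motif with 4 tracts, in which the 2 bars nearest to the motif, both exonic, are red.

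Along PTBP2 the listed sites lay in the outer parts of the stretch they span, with few between. When the stretch from its first to its last listed site was split into 3 equal segments of 29.7 kb, they held 13, 1 and 14 switch sites and 4, 0 and 5 HCS sites. The only site of the middle segment was the switch site of 6 uridines at 97232369 to 97232374, and from there 18556 nt held no listed site and 20205 nt no switch site. The run with the most sites among those with at most 2000 nt between neighbours covered 4.02 kb, from position 15980 to 20002, and held 6 switch sites and 2 HCS sites, with none in common. Only 8.24% of all switch sites were HCS sites, so the lack of shared sites shows nothing particular to this run. The HCS sites there were at 97206089 to 97206093 and 97206750 to 97206754, 595 and 413 nt from the nearest switch site. The first HCS site of the gene, at 97189979 to 97189983 and position 2806 of the transcript, was intronic and also its first switch site.

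PCBP2 was covered more evenly and more densely. Its 3 segments of 9.18 kb held 9, 7 and 9 switch sites. The largest interval between neighbouring switch sites was 4371 nt, and up to 12 of them lay within 10 kb, against up to 7 in PTBP2. Counted from first to last switch site, PCBP2 had 9.21 switch sites per 10 kb over 27.1 kb and PTBP2 had 3.14 over 89.1 kb. Among the 31 genes with at least 20 switch sites, where the median was 2.6 and the range 0.812 to 9.21, PCBP2 ranked first and PTBP2 ranked 11. The stretch between outer sites is shorter than the gene, so these densities are upper estimates. The HCS sites of PCBP2 lay in its first and last segments. The 3 in the first segment, at 53846767 to 53846771, 53849856 to 53849860 and 53854337 to 53854341, were not in the switch list, while the 3 in the last segment, which are the pair above and a tract at 53868436 to 53868440, all were. The middle segment held none. The pair shares a motif, and 40.1% of all HCS sites were in the switch list. These 6 sites are too few to read a pattern by position.

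PTBP1 and PTBP3 had few sites. In PTBP1, on the plus strand of chromosome 19, the 4 U-tracts lay within 2.67 kb of each other, at positions 11785 to 14450 of the transcript. Those at 809175 to 809179 and 809183 to 809187 had 5 uridines each, were 3 nt apart and shared a motif. The others, at 810931 to 810937 and 811835 to 811840, had 7 and 6 uridines. In all 4 the motif lay upstream, with gaps of 28, 36, 10 and 6 nt. The PTBP3 tract of 5 uridines was on chromosome 9, minus strand, at 115014256 to 115014260, with its motif 12 nt downstream. It was entered under 2 PTBP3 transcripts, at positions 81684 and 81046, and also under the symbol of a microRNA gene, MIR3134, at position 98285, a position far beyond the length of a microRNA hairpin. RefSeq (GRCh38) places MIR3134 on another chromosome, so that entry does not match the annotation, and without sites under a second symbol PTBP3 has 0. Exon or intron was not given for the sites of PTBP1 and PTBP3, since they were in the switch list only.

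**Figure D3:**
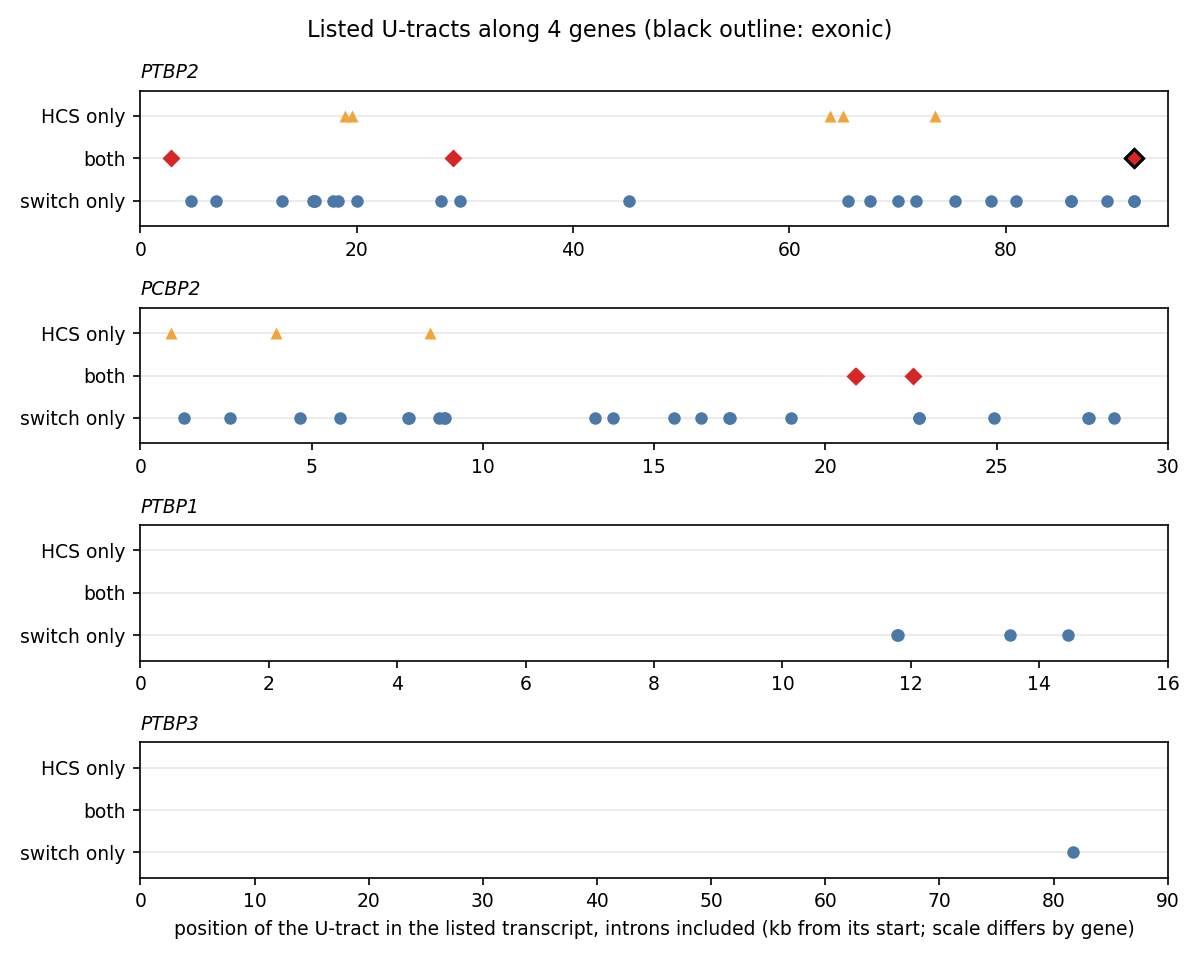
Position of each listed U-tract in kb from the start of the listed transcript, introns included, for PTBP2, PCBP2, PTBP1 and PTBP3 (x scales differ); blue circles are in the switch list only, red diamonds in both lists and orange triangles in the HCS list only, and a black outline marks exonic HCS sites. PTBP2 shows 13, 1 and 14 switch sites in successive segments, and the exonic pair is at its right end.

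The lists were then compared within PTBP2 and PCBP2. In PTBP2, 4 of the 28 switch sites were also HCS sites (14.3%, interval 4.03% to 32.7%). In PCBP2 it was 3 of 25 (12%, interval 2.55% to 31.2%). Over all switch sites the share was 8.24%, a value inside both intervals. Seen from the HCS list, 4 of the 9 sites of PTBP2 (44.4%, interval 13.7% to 78.8%) and 3 of the 6 of PCBP2 (50%, interval 11.8% to 88.2%) were in the switch list, against 40.1% of all HCS sites. Each of the 7 shared sites had the same U-tract and the same motif in both lists. For the 8 HCS sites outside the switch list, the nearest switch site of the gene was 272 to 1703 nt away (median 533.5 nt). In PTBP2 they were the 2 tracts in the first segment given above and 3 in the last segment, at 97250931 to 97250935, 97252103 to 97252107 and 97260627 to 97260632.

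Of the 15 HCS sites of these genes, 13 were intronic and 2, the PTBP2 pair, exonic (13.3%, interval 1.66% to 40.5%), against 17.0% exonic over the HCS list. PTBP2 had 2 exonic of 9 (22.2%, interval 2.81% to 60%) and PCBP2 had 0 of 6 (interval 0 to 45.9%), so these numbers cannot separate the genes. The exonic sites of PTBP2 were both in the switch list, as were 2 of its 7 intronic sites and 3 of the 6 intronic sites of PCBP2. Over all genes 58.0% of exonic and 36.4% of intronic HCS sites were. The exonic pair shares a motif. Among the 31 genes with at least 20 switch sites, the median was 4 HCS sites (range 0 to 9), 6 genes had at least 4 shared sites, as PTBP2 did, and 5 had at least 2 exonic HCS sites.

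U-tracts of 5 uridines were about as frequent as in the lists as a whole. The switch sites of the 5 genes were 5 uridines long in 36 of 58 cases (62.1%, interval 48.4% to 74.5%; 63.7% of all switch sites), and the HCS sites in 11 of 15 (73.3%, interval 44.9% to 92.2%; 66.7% of all HCS sites). Long tracts of at least 8 uridines were 6 of the 28 switch sites of PTBP2 (21.4%, interval 8.30% to 41.0%) and 2 of the 25 of PCBP2 (8%, interval 0.984% to 26.0%), against 9.88% of all switch sites. The longest of them, 16 uridines in PTBP2 at 97191831 to 97191846, was a switch site with its motif 23 nt upstream and was not in the HCS list. Tracts of 16 or more were 1.56% of all switch sites. PTBP2 also held tracts of 8 at 97207168 to 97207175, 97252580 to 97252587 and 97276526 to 97276533, and PCBP2 tracts of 8 and 9 at 53851712 to 53851719 and 53868620 to 53868628. None of these 5, nor the PTBP2 tract of 10 described above, was an HCS site. The one long HCS tract was the exonic tract of 8 in PTBP2, 1 of the 8 long switch tracts of these genes. Of all switch sites of any length, 8.24% were HCS sites. The share among all long tracts was not determined, so these counts show nothing particular to long tracts.

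The distance from tract to motif was measured as the edge-to-edge gap. The median gap of switch sites was 17.5 nt in PTBP2 (order-statistic 95% interval 10 to 24) and 23 nt in PCBP2 (14 to 29), against 17 nt over the list. For HCS sites it was 11 nt in PTBP2 (interval 3 to 34) and 29.5 nt in PCBP2 (8 to 41, the full range of its 6 sites), against 11 nt over the list. The 9 gaps of PTBP2 HCS sites, in order along the RNA, were 40, 4, 11, 0, 34, 3, 28, 9 and 18 nt. The 6 of PCBP2 were 30, 8, 16, 29, 35 and 41 nt. Gaps of at most 10 nt were thus found in 4 of 9 HCS sites of PTBP2 and in 1 of 6 of PCBP2, against 48.6% of all HCS sites. With so few sites the ranges of the genes overlap almost completely. The HCS tract at gap 0 was the intronic PTBP2 site at 97216114 to 97216119, whose 6 uridines touch the motif. It was 1 of 4 switch sites in these genes that touch or overlap their motif, the others being 1 in PTBP2, at 97205489 to 97205493, and 2 in PCBP2, at 53863091 to 53863095 and 53870812 to 53870818 (6.9% of the 58, against 5.79% of all switch sites).

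The motif was downstream of its tract in 26 of the 58 switch sites of these genes (44.8%, interval 31.7% to 58.5%), against 59.7% of all switch sites. That value lies just above the interval, which treats tracts as independent. PTBP2 had 13 of 28 downstream and PCBP2 12 of 25, while PTBP1 had 0 of 4. Motifs with several tracts count more than once here, on either side. With 1 U-tract per motif, 22 of 47 were downstream (46.8%, interval 32.1% to 61.9%), against 58.7% of all motifs, a value inside that interval. Among HCS sites 9 of 15 were downstream (60%, interval 32.3% to 83.7%; 56% over the list). Of the gaps common in the switch list as a whole, 40 nt downstream occurred at 2 of the 58 switch sites (2.85% of all switch sites), both in PTBP2, at 97189979 to 97189983 and 97216741 to 97216745, of which the first was also an HCS site. The gap of 48 nt downstream (1.88% of all) occurred at 0 sites, and that of 28 nt upstream (1.49% of all) at 1, in PTBP1. Counts this small show nothing particular to these genes.

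**Figure D4:**
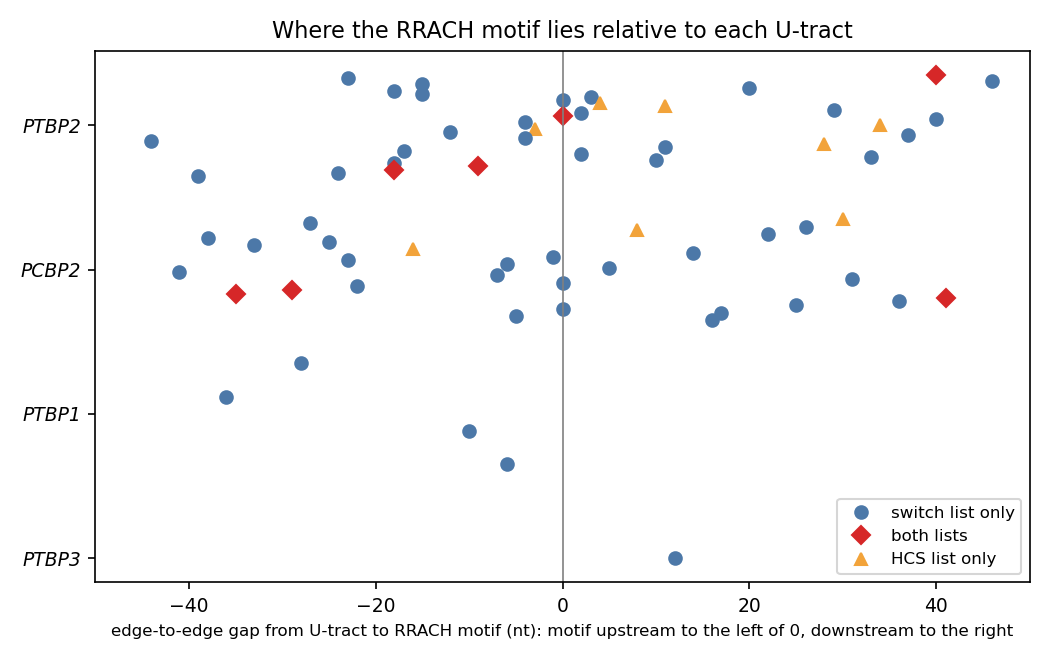
Edge-to-edge gap in nt from each U-tract to its RRACH motif (x axis, upstream motifs left of 0 and downstream motifs right of it, with an overlap drawn at 0) for PTBP2, PCBP2, PTBP1 and PTBP3, sites ordered from top to bottom along each transcript; blue circles are switch sites only, red diamonds in both lists, orange triangles HCS only. The 6 HCS sites of PCBP2 lie at 8 to 41 nt and the 9 of PTBP2 at 0 to 40 nt, and all 4 PTBP1 sites lie left of 0.

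Neighbouring tracts were common, here as in the whole switch list. A further switch site lay within 100 nt of 9 of the 28 switch sites of PTBP2, 12 of the 25 of PCBP2 and 2 of the 4 of PTBP1. Together these were 23 of the 58 (39.7%, interval 27.0% to 53.4%), against 30.9% of all switch sites, a value inside that interval. Of the 23, 20 share a motif with a neighbour, which places them close by construction. The other 3 were the PTBP2 tracts at 97203153 to 97203157, 97203226 to 97203231 and 97203280 to 97203284, each with a motif of its own.

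Related genes were read from lists chosen on their function. Of 24 other regulators that bind U-rich or pyrimidine-rich RNA, or work beside such proteins, 20 had a switch site and 10 of these an HCS site, against 36.6% over all genes with a switch site. The median over the 20 was 5.5 switch sites, against 2 over all 4187 genes with any. The 36.6% thus covers many genes with fewer sites. Of the 318 genes with exactly 4 switch sites, 171 (53.8%) had no HCS site, so the 10 of 20 shows nothing particular to this list. The share of all human genes with a switch site was not determined, so the 20 of 24 cannot be judged. RBFOX2, a splicing regulator that reads a GCAUG element, held 18 switch and 5 HCS sites, of which 4 were shared. MATR3, a nuclear matrix protein that partners with PTBP1, held 16 and 5, with 1 shared. CELF1, which binds GU-rich RNA, held 13 and 4, with 0 shared, and RBM4, a splicing regulator that can oppose PTBP1, held 18 and 3, with 3 shared. RAVER1 and RAVER2, corepressors that bind PTBP1, held 3 and 1 switch sites, and RAVER2 also 1 HCS site, shared. None of the 24 reached the numbers of PTBP2 or PCBP2. Of 10 KH-domain relatives of the PCBP proteins, 4 had a switch site (median 8) and 3 of these an HCS site, a count too small to set beside the 36.6%. FMR1, the fragile X protein, held 12 and 1, and the RNA-binding adaptor KHDRBS1 (Sam68) 10 and 1. HNRNPK, the closest of these 3 to the PCBP proteins in RNA preference, held 6 and 1. Each of these HCS sites was shared. FXR2 held 1 switch site. PCBP3 and PCBP4 were in neither list.

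The other further lists held genes on which these proteins act or with which they work. Of 10 textbook splicing targets of PTBP1, FGFR2, PKM and TPM1 held 1 switch site each, the other 7 held none, and none had an HCS site. Of 8 partners of the PCBP proteins in iron handling, the oxygen sensor EGLN1 held 2 switch sites and the iron importer SLC11A2 held 1, and none had an HCS site. Of all genes with a switch site, 39.0% held exactly 1, so the small numbers per gene show nothing particular to the lists. Among those 1632 genes 80.3% had no HCS site, so its absence in the listed genes with 1 switch site is not particular either. How many of all human genes lack a switch site was not determined, so the absent genes cannot be judged. Whether the genes of these lists were expressed in HEK293T cells was not analysed here.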

How the data were processed

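hnRNP C PAR-CLIP, PARCLIP-MeRIP and RNA-seq of HEK293T cells gave 18 samples, grouped by title. The submitters' processing notes name Trimmomatic, Bowtie 1.0.0, TopHat 1.1.4, Cufflinks, Cuffdiff, DESeq and hg19. How sites were called, the thresholds and any pooling of replicates are not given in the labels or headers. The 2 deposited lists hold positions, lengths and distances in nt, per the file headers, and no counts, scores or p-values.

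Entries (17352 switch, 2798 HCS) were reduced to distinct U-tracts by chromosome, strand, start and end, as 13378 and 2748 sites. A Y-chromosome copy of an X-chromosome site was counted once. Missing symbols were looked up by transcript in a RefSeq table of GRCh38, used for names only, which matched 753 of 756 and 4 of 4. None was one of the 5 genes. In every entry the length matched the listed span. The distance column holds the gap for a downstream motif and adds the 5 nt of the motif where it is upstream, in all entries. The motif's transcript position is 1 nt lower in the switch list than in the HCS list relative to the chromosome position, so chromosome positions were used.

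The design planned no test. Shares carry exact binomial (Clopper-Pearson) intervals and medians order-statistic intervals, at 95%. Alternatives were other counting units, a minimum of 6 uridines, the listed distance and other neighbour distances. The genes and lists were chosen with earlier results of these data known. Named beside the 5 genes are the 3 nearest by numbers of sites, ties by alphabet, and up to 4 genes a list, those with most HCS sites. RAVER1, RAVER2, PCBP3 and PCBP4 are named outside that rule, after their values were seen. Counting functions were tested on simulated data. The software was scipy 1.17.1, pandas 2.3.3, numpy 2.4.6 and, for plots, matplotlib 3.10.9, under Python 3.11.15.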

Additional observations from a re-analysis of the deposited data

How the results depend on the processing

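The sites of the 5 genes were counted again under other choices. With U-tracts of at least 6 uridines only, 22 of the 58 switch sites and 4 of the 15 HCS sites remained, because most tracts have 5 uridines. By distinct motif, the exonic HCS sites fell from 2 to 1, and with sites in both lists only, the intronic HCS sites from 13 to 5. A neighbour within 1000 nt in place of 100 nt was found for 36 switch sites in place of 23. The other 19 of 24 alternatives over all 5 genes stayed within 1.5 times the count or within the interval of the value, among them 47 switch sites by distinct motif and 45 after merging tracts within 100 nt. Without sites listed under a second symbol, PTBP3 had 0 switch sites. No paired analysis was possible because the lists hold no value per sample, and leaving out replicates was not possible for the same reason. Depth is unknown.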
